A study of Mus musculus with 105 samples.

Results

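Respiratory chain subunits encoded in the nucleus were followed through the first 4 days of differentiation of female mouse embryonic stem cells. Members were chosen by gene name in the TX1072 count table, and 88 of its 52016 genes matched. The names were those that begin with Nduf, then a, b, c, s or v and a number (complex I, 40 genes), Sdha to Sdhd (complex II, 4 genes), those that begin with Uqcr (complex III, 8 genes), Cox4 to Cox8 (complex IV, 19 genes) and Atp5 (complex V, 17 genes). A further 13 names with the pseudogene mark -ps were left out. GENCODE lists 84 of the 88 as protein coding and 4 as processed pseudogenes (Cox6c2, Ndufa11b, Ndufb4c and Ndufs6b). Each of the 88 was in the deletion-line table too, and 87 were found in the single-cell table, where Ndufs6b was not. The filter on low counts kept 80 members in TX1072 and 81 in the deletion lines, and the 8 untested in TX1072 (the 4 pseudogenes, Cox4i2, Cox6a2, Cox8b and Cox8c) stayed at or below 0.483 CPM in every TX1072 library.

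Names do not always follow function. Ndufa4 and Ndufa4l2 carry a complex I name although Ndufa4 protein belongs to complex IV, and Cox7a2l is a factor of respiratory supercomplexes and not a structural subunit of complex IV. They were kept in the complex that the name gives.

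Complexes I to IV sit in the inner mitochondrial membrane and pass electrons from NADH and succinate to oxygen, and complexes I, III and IV pump protons while they do so. Complex V, the ATP synthase, lets the protons flow back and makes ATP. Complexes I, III, IV and V combine nuclear subunits with core subunits encoded by mitochondrial DNA, of which complex III has only cytochrome b. Complex II is encoded in the nucleus alone. Naive mouse embryonic stem cells are known to use both respiration and glycolysis, whereas cells that leave this state towards the formative state are known to rely more on glycolysis.

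TX1072 is a female line from a cross of a B6 and a Cast parent and carries an X chromosome of each. In the clone used (A3), a doxycycline-responsive promoter stands before Xist on the B6 X and the transactivator rtTA is in Rosa26. TXdXicB6 (clone A1) lacks a region around Xist, the X inactivation center, on the B6 X and can inactivate the Cast X only, while TXdXicCast (clone A6) lacks that of the Cast X and inactivates the B6 X. Each deletion line is a single clone. Day 0 cells grew in 2i and Lif, and days 1, 2, 3 and 4 count from withdrawal of 2i and Lif. Bulk RNA was sequenced with 3 replicates a day from each line (45 libraries), and single TX1072 cells were captured from 1 culture a day (400 capture sites a day), the population that also gave bulk replicate 1.

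Library totals ran from 19827011 to 39628784 counts in TX1072, from 20246434 to 49962859 in TXdXicB6 and from 16906263 to 57920260 in TXdXicCast. TX1072 and the deletion lines were prepared with different kits and read lengths, so they were tested apart and their levels are not compared. The RNA of the 3 TXdXicCast libraries of day 0 was degraded and was fragmented under milder conditions than the others. In these 3 libraries the summed level of the mitochondrially encoded subunits was 1604, 3715 and 2198 CPM, against 21318, 17047 and 20191 CPM on day 1 of the same line. Every comparison with day 0 of TXdXicCast rests on these libraries, and RNA quality and day cannot be told apart in it. The change from day 1 is therefore given too for the count over all members, the complex sums and several genes described below. Counts by complex or by other list in this line are against day 0 only. Apart from the degraded libraries, day 0 replicate 3 of TX1072 stood high for several members and day 4 replicate 2 of TXdXicB6 stood low. Among the members named in the text, the calls of Ndufa1, Uqcrq, Cox7a2l, Atp5md and Atp5g2 in TX1072 from day 0 to day 4 were lost without the first of these. Without the second, the TXdXicB6 calls over the same days were lost for Ndufs1, Ndufv1, Ndufb4, Cox7a2l, Atp5b and Atp5g3. Several of these calls do not rest on that library alone, since that of Ndufs1 was lost without any one of the 6 libraries of these days, those of Ndufv1, Cox7a2l and Atp5b also without day 0 replicate 1, and that of Cox7a2l in TX1072 without any of 4 libraries. The log2 change of Ndufs1 in TXdXicB6 stayed between -0.25 and -0.21 in these fits. Its call was also lost with scaling factors from all genes (edgeR adjusted p = 0.0535) and without a filter on low counts (edgeR adjusted p = 0.172). Mitochondrial counts were 7.90% of day 0 replicate 3 of TX1072, against 2.47% and 1.92% in the other replicates, and 8.57% of day 3 replicate 2, against 1.83% and 2.12%. In TXdXicB6 they were 0.690% of day 0 replicate 1, against 1.36% and 1.64%. The part of these differences in the results was not tested. In bulk RNA, CPM stands for a gene's count relative to the autosomal total of its library, scaled by TMM (the trimmed mean of M-values) and not by gene length. In single cells it is a gene's UMIs relative to the UMIs of all genes, with no TMM.

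The labels were checked against known markers. Naive pluripotency genes summed to 5206, 5449.6 and 5562 CPM in the TX1072 libraries of day 0 and 415, 515 and 518 CPM on day 4, with 8 of 8 lower, while formative genes rose from 283, 352 and 288 to 1142, 969 and 1001 CPM. Of the allele-specific Xist counts on day 4, 100.0% ± 0.0171 in TXdXicB6 and 99.9% ± 0.0864 in TXdXicCast (SD, n = 3) came from the X with an intact center, as the labels say.

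The summed level of the 88 members fell in all 3 lines. In the TX1072 libraries it was 15990.3, 16707 and 17300.0 CPM on day 0 and 11710.3, 11617 and 11789.6 CPM on day 4, which is 70.2% of the day 0 mean. The spread on day 4 (11706 ± 86.6, SD, n = 3) was small beside the gap to day 0. TXdXicB6 went from 12963, 11497 and 11062 CPM to 10185, 7915 and 9195 CPM (76.8% of day 0). TXdXicCast went from 12386, 12920.5 and 15133 CPM in the degraded day 0 libraries to 10078, 9044 and 9209 CPM on day 4 (70.1%), and its day 1 libraries held 10907, 11513 and 11680.3 CPM. Relative to the total count of each library, without TMM, the day 4 sum was 84.2% of day 0 in TXdXicB6 and 83.9% in TXdXicCast. In each line every day 4 library lay below every day 0 library, as the plot of summed levels shows. The decline was not steady in TX1072: the sum stood at 84.2% of day 0 on day 1, 90.7% on day 2 and 81.3% on day 3. Bulk RNA cannot tell fewer cells of a type from less RNA per cell.

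**Figure D1:**
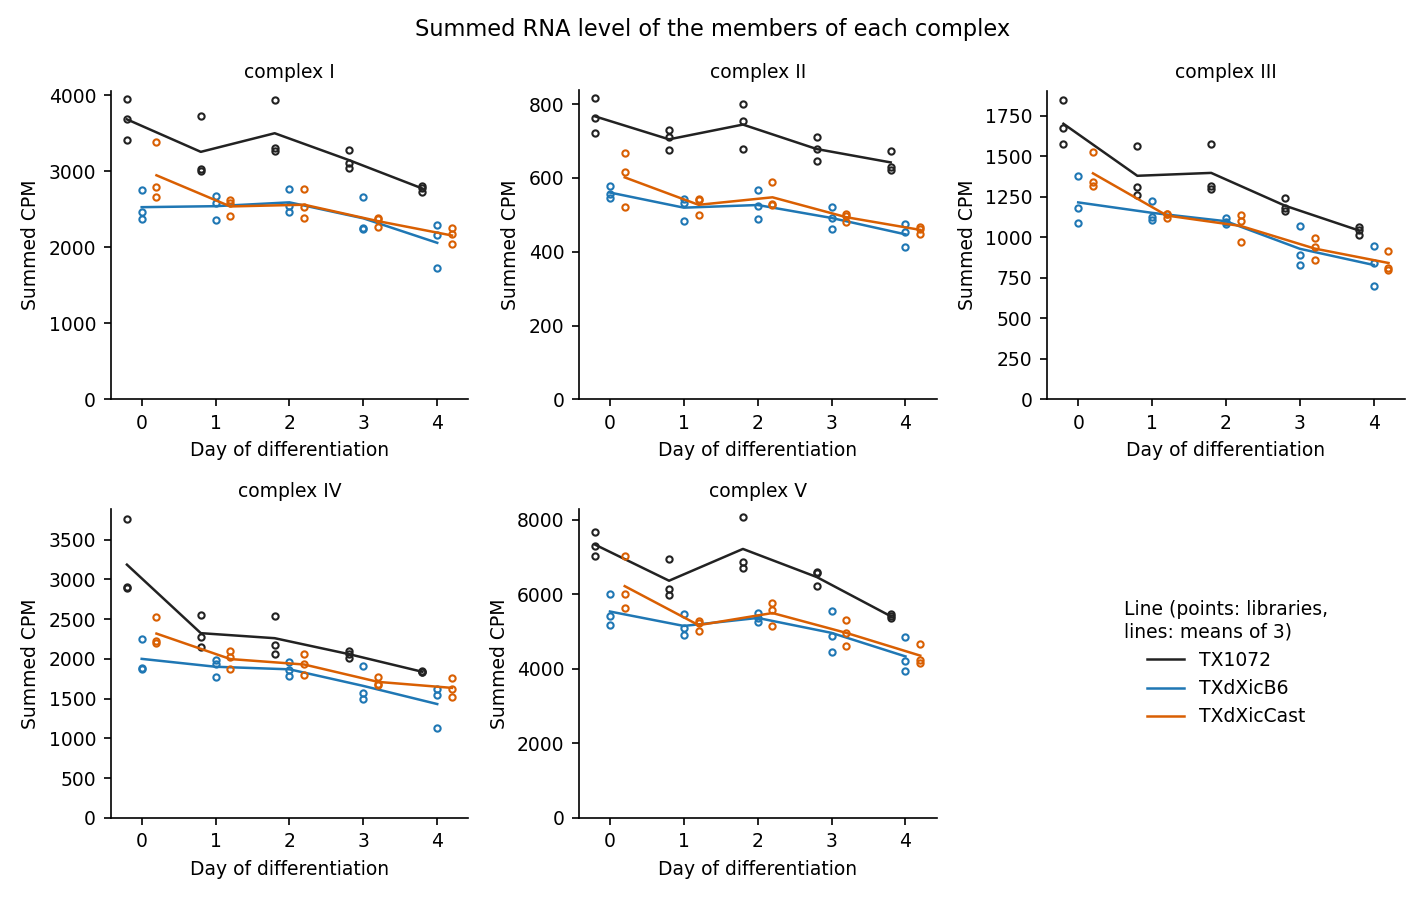
Summed level of the members of each complex (CPM, axes from 0) by day of differentiation, with a point for each library and a line through the mean of 3 replicates, in TX1072 (black), TXdXicB6 (blue) and TXdXicCast (orange). In all 5 panels and all 3 lines the day 4 libraries lie below the day 0 libraries, with day 0 of TXdXicCast from degraded RNA, and heights are not comparable between TX1072 and the deletion lines.

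Member by member, 61 of 80 tested members fell from day 0 to day 4 in TX1072 and none rose (edgeR quasi-likelihood test, Benjamini-Hochberg adjusted p under 0.05). Of all 19065 genes tested 58.8% were called, 27.8% as lower and 31% as higher. The members' median log2 change was -0.49, beside 0 over all genes tested. In TXdXicB6 39 of 81 members fell and 1 rose (58.9% of all genes called, 29% as lower and 29.9% as higher), with a median of -0.35 beside -0.01 over all genes. In TXdXicCast 48 fell and 6 rose against the degraded day 0 (69.4% of all genes called, 34% as lower and 35.4% as higher), with a median of -0.42 beside 0.04. Without day 4 replicate 2 of TXdXicB6, 27 members of that line were lower and the median was -0.23.

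The change since day 1, which does not use the degraded libraries, was also downward in the 3 lines. From day 1 to day 4, 27 of 80 members fell and 3 rose in TX1072 (58.5% of all genes called, 29% as lower and 29.6% as higher), and 17 fell and 4 rose without day 1 replicate 2. TXdXicB6 had 41 of 81 lower and 2 higher (56.1% called, 28.1% as lower and 27.9% as higher), and TXdXicCast 33 lower and 2 higher (58.8% called, 29.1% as lower and 29.7% as higher). The TXdXicB6 count is sensitive to libraries: 17 members were called without day 4 replicate 2 and 26 without day 1 replicate 1. The TXdXicCast count was 20 without day 4 replicate 2. In TXdXicCast the day 4 sums of complexes I to V stood, in that order, at 84.9%, 87.1%, 74.2%, 81.8% and 84.2% of day 1. A test of the difference between the deletion lines in the change from day 1 to day 4 called 0 of 81 members with edgeR and 0 with DESeq2, while 1 had an unadjusted p under 0.05 (0.722% of all genes called).

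Members followed different time courses within TX1072. Of the 80 tested members, 51 had their highest mean on day 0 and 23 on day 2, while 53 had their lowest mean on day 4 and 14 on day 1. The same shares over all genes were not computed. On day 1, 33 members were lower and 1 was higher than on day 0 (46.5% of all genes called, 20.8% as lower and 25.7% as higher). This count depends on single libraries, since 21 were called without day 0 replicate 3, 21 without day 1 replicate 1 and 18 without day 1 replicate 3. On day 2 there were 24 lower and 4 higher (55.7% called, 25.9% as lower and 29.8% as higher), with 15 lower without day 2 replicate 1 and also without day 2 replicate 3. On day 3 there were 42 lower and 2 higher (55.4% called, 27% as lower and 28.3% as higher). In TXdXicB6 5 members were lower and 4 higher on day 1 (45.1% called, 21.7% as lower, 23.4% as higher). The fit with the replicate number as a block called 14 there, and 5 were called without day 1 replicate 1. The split by direction also moved, to 2 lower and 7 higher without day 0 replicate 1 and 9 lower and 1 higher without day 0 replicate 3. Against the degraded day 0 of TXdXicCast, 35 were lower and 11 higher on day 1 (58.6% called, 29.4% as lower and 29.2% as higher).

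**Figure D2:**
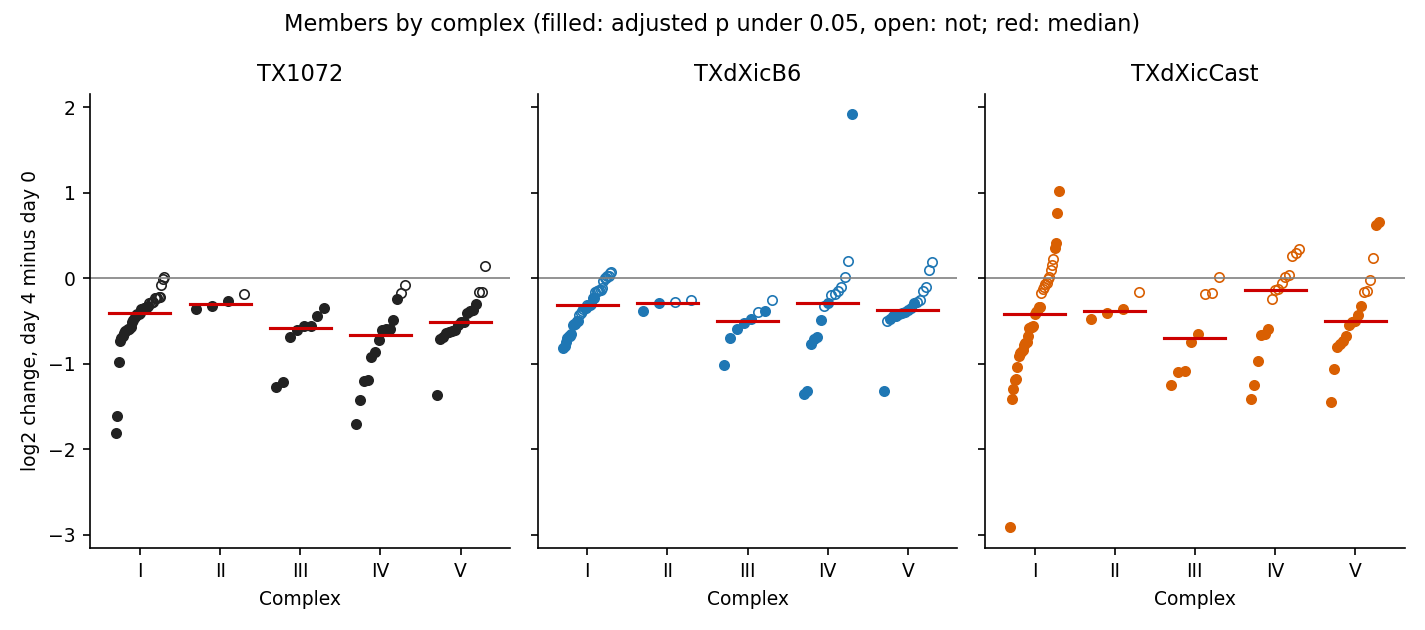
log2 change of each tested member from day 0 to day 4 by complex, for TX1072, TXdXicB6 and TXdXicCast, with filled points past an adjusted p of 0.05 (edgeR), open points not past it and a red bar at the median. In TX1072 each filled point lies below 0, whereas in TXdXicCast, with degraded day 0 RNA, 6 filled points of complexes I and V lie above 0.

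Complex I, the NADH dehydrogenase and the largest of the complexes, had the smallest share of falling members of the 5 complexes in TX1072. This order was not tested, and in TXdXicCast complex IV had a smaller share against the degraded day 0. From day 0 to day 4, 24 of 37 tested complex I members fell, and their sum ended at 75.3% of day 0. TXdXicB6 had 15 of 37 lower (81.4% of day 0) and TXdXicCast 23 lower and 4 higher. Of all genes tested, 27.8% were lower in TX1072, 29% in TXdXicB6 and 34% in TXdXicCast, where 35.4% were higher. The 7 nuclear core subunits of complex I carry the flavin, the iron-sulfur clusters and the quinone site.

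The core subunits moved unevenly. Ndufv2, an iron-sulfur subunit of the NADH-oxidizing arm, changed by -0.68 ± 0.11 (SE, edgeR adjusted p = 2.81e-05) in TX1072 and -0.54 ± 0.12 in TXdXicB6, but by -0.01 ± 0.12 from the degraded day 0 of TXdXicCast and by -0.06 (edgeR adjusted p = 0.718) from its day 1, where neither test was passed. Ndufs7, beside the quinone site, fell by 0.60 in TX1072 and by 0.91 in TXdXicCast on the log2 scale, where the change from day 1 was -0.46 (edgeR adjusted p = 0.0402), lost without any of 4 libraries (edgeR adjusted p 0.0581 to 0.181). Its decrease in TXdXicB6 (-0.53, edgeR adjusted p = 0.0181) was lost without day 0 replicate 1 (-0.38, edgeR adjusted p = 0.126) and without day 4 replicate 3 (-0.41, edgeR adjusted p = 0.105). Ndufs1, the large iron-sulfur subunit, had -0.23 (edgeR adjusted p = 0.0752) and Ndufv1, which binds NADH, -0.22 (edgeR adjusted p = 0.141) in TX1072, and neither passed, although both did without day 0 replicate 3 (-0.33 and -0.35, edgeR adjusted p = 0.0142 and 0.0159). Ndufs1 also passed with DESeq2 (adjusted p = 0.0359) and with its size factors in edgeR (adjusted p = 0.0465). Ndufs3, a subunit of the peripheral arm, had an edgeR adjusted p of 0.979 there. Ndufs8 fell by 0.42 in TX1072, which was lost without day 0 replicate 2 (-0.34, edgeR adjusted p = 0.0677).

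Among the accessory subunits, Ndufa13 dipped on day 1 and came back. Its levels in TX1072 were 86.3, 96.3 and 114 CPM on day 0, 53.7, 76.3 and 48.6 CPM on day 1 and 103, 121 and 87.5 CPM on day 2. The day 1 libraries lay below all others of these days, with a log2 change of -0.73 ± 0.16 (SE, edgeR adjusted p = 8.17e-04). TXdXicB6 showed -0.52 ± 0.13 from day 0 to day 1 (edgeR adjusted p = 0.00164), and TXdXicCast -1.46 ± 0.13 from its degraded day 0. From day 1 to day 4 it rose in each line, by 0.51 in TX1072, 0.36 in TXdXicB6 and 0.59 in TXdXicCast. The TX1072 rise was lost without day 1 replicate 3 (0.38, edgeR adjusted p = 0.0615), and that of TXdXicB6 without day 1 replicate 1 (0.35, edgeR adjusted p = 0.0509) or day 4 replicate 1 (0.34, edgeR adjusted p = 0.0561).

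Ndufb4, an accessory subunit of the membrane arm, went in opposite directions in the deletion lines. TX1072 held 36.4, 36.6 and 71.4 CPM on day 0 and 14.1, 14.0 and 18.9 CPM on day 4, with replicate 3 of day 0 far above the other 2, and changed by -1.62 ± 0.23 (SE, edgeR adjusted p = 6.97e-06). TXdXicB6 held 20.2, 22.0 and 29.3 CPM on day 0 and 16.9, 9.41 and 16.2 CPM on day 4, a change of -0.75 ± 0.22 (SE, edgeR adjusted p = 0.00502) that was lost without day 4 replicate 2 (-0.53, edgeR adjusted p = 0.0525). In TXdXicCast the degraded day 0 libraries held 6.63, 14.4 and 10.1 CPM, below the 21.1, 22.5 and 29.5 CPM of day 1 and the 18.4, 16.1 and 18.7 CPM of day 4. The day 4 to day 1 changes were -0.88 ± 0.22 (SE, edgeR adjusted p = 0.00126) in TXdXicB6 and -0.45 ± 0.22 (SE, edgeR adjusted p = 0.0795) in TXdXicCast, where the replicate block (-0.44, edgeR adjusted p = 0.0408) and the fit without a filter (-0.45, edgeR adjusted p = 0.0137) passed. Another member that rose against the degraded day 0 was Ndufa4, at 46.8, 67.9 and 54.1 CPM on day 0 and 109.7, 109 and 126 CPM on day 1, while its TX1072 and TXdXicB6 changes to day 4 were -0.23 (edgeR adjusted p = 0.129) and 0.06 (edgeR adjusted p = 0.789).

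Complex II, succinate dehydrogenase, which also serves the citric acid cycle, kept the largest part of its day 0 level in TX1072 among the 5 complexes, with a sum at 83.7% on day 4. In TXdXicB6 and TXdXicCast the sums were 79.8% and 76.3%. Sdha, the flavoprotein subunit, measured 377, 364 and 347 CPM on day 0 and 312, 317 and 325 CPM on day 4 in TX1072. These replicates did not overlap, but the change of -0.19 ± 0.09 (SE, edgeR adjusted p = 0.0733) did not pass the test, although it did without day 0 replicate 3 (-0.25, edgeR adjusted p = 0.0256) and with DESeq2, and it passed in TXdXicB6 (-0.38, edgeR adjusted p = 0.00161). Sdhd, a membrane anchor, changed by -0.33 (edgeR adjusted p = 0.0395) in TX1072, a call that was lost without any of 4 libraries, with values of -0.25 (edgeR adjusted p = 0.15), -0.34 (edgeR adjusted p = 0.0609), -0.34 (edgeR adjusted p = 0.0687) and -0.25 (edgeR adjusted p = 0.158) without day 0 replicates 1 and 2 and day 4 replicates 2 and 3.

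Complex III, the cytochrome bc1 complex, had 8 of 8 members lower on day 4 in TX1072, 6 of 8 in TXdXicB6 and 5 of 8 in TXdXicCast. The shares of all genes called lower were 27.8%, 29% and 34% in these lines. The TX1072 call of Uqcrq, a small subunit, was lost without day 0 replicate 3 (-0.41, edgeR adjusted p = 0.115) or day 4 replicate 1 (-0.52, edgeR adjusted p = 0.071). The sum of complex III ended at 61.3%, 68.2% and 60.3% of day 0. Uqcr10, a small subunit beside the Rieske protein, went from 196, 196 and 257 CPM to 97.3, 86.8 and 84.9 CPM in TX1072. Its log2 changes were -1.27 ± 0.15 (SE, edgeR adjusted p = 7.29e-07) in TX1072, -1.01 ± 0.16 (SE, edgeR adjusted p = 3.49e-06) in TXdXicB6 and -1.25 ± 0.16 (SE, edgeR adjusted p = 8.34e-08) in TXdXicCast, where it was -0.65 (edgeR adjusted p = 8.41e-04) from day 1. Uqcrc1 and Uqcrc2 are the core proteins, and Uqcr10 had the highest CPM per kilobase of exon of the complex on day 0 (371). Uqcrc1 fell from 387, 406 and 369.5 CPM to 254, 251 and 257 CPM, and Uqcrc2 from 300.2, 279 and 252 CPM to 199, 181 and 184 CPM, with no overlap of the days for either.

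Within complex III, Uqcrq moved late. Uqcrq, the ubiquinone-binding subunit, was at 0.26 (edgeR adjusted p = 0.311) on day 1 in TX1072 and then fell by 0.82 from day 1 to day 4 (edgeR adjusted p = 0.00213). TXdXicCast showed the same late decrease of -0.68 ± 0.17 (SE, edgeR adjusted p = 0.00148), and TXdXicB6 -0.71 ± 0.17 (SE, edgeR adjusted p = 0.0011). Uqcrb, another ubiquinone-binding subunit, fell in TX1072 (-1.21 ± 0.15 SE, edgeR adjusted p = 1.79e-06) and TXdXicB6 (-0.70 ± 0.14). In TX1072 Uqcrb was already called lower on day 1. Against the degraded day 0 of TXdXicCast it stood at 0.01 (edgeR adjusted p = 0.929), but it fell from day 1 to day 4 there by 0.62 (edgeR adjusted p = 3.22e-04).

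Complex IV, cytochrome c oxidase, kept the smallest part of its summed level in TX1072. The sum was 2893, 2909 and 3754 CPM on day 0 and 1848, 1829 and 1835 CPM on day 4, or 57.7% of day 0, with day 0 replicate 3 well above the other 2, and it had already reached 72.9% on day 1. As a median over members of log2 CPM the order differed, with -0.61 for complex IV, -0.83 for complex III and -0.70 for complex V. In TXdXicB6 and TXdXicCast the sums stood at 71.6% and 70.5% on day 4. From day 0 to day 4, 12 of 14 tested members fell in TX1072, 7 of 15 fell and 1 rose in TXdXicB6, and 6 of 15 fell in TXdXicCast. Over all genes 27.8%, 29% and 34% were lower in these lines, and 29.9% were higher in TXdXicB6. The member that rose in TXdXicB6, Cox4i2, stayed at or below 0.4365 CPM in every deletion-line library. Cox5a, a subunit of the matrix side, fell early and stayed low, at 347, 313 and 337 CPM on day 0, 225, 197 and 196 CPM on day 1, 124, 151 and 138 CPM on day 2 and 160.3, 136 and 136 CPM on day 4. All later libraries of TX1072 lay below those of day 0, and the change to day 4 was -1.21 ± 0.12 (SE, edgeR adjusted p = 3.70e-08). It was -1.32 ± 0.19 (SE, edgeR adjusted p = 5.54e-07) in TXdXicB6 and -0.65 ± 0.18 (SE, edgeR adjusted p = 0.00257) in TXdXicCast, with -0.57 (edgeR adjusted p = 0.00904) from day 1 there.

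Several complex IV subunits have a general gene and another gene known for a narrower range of tissues. Cox7a1, best known from heart and skeletal muscle, had the largest fall from day 0 to day 4 in TX1072 of the members with a mean count of at least 100. It went from 10.6, 8.63 and 16.0 CPM on day 0 to 4.06, 4.57 and 4.26 CPM on day 1 and 2.83, 2.96 and 3.01 CPM on day 3 in TX1072, and the change to day 4 was -1.71 ± 0.22 (SE, edgeR adjusted p = 2.05e-06). Both deletion lines showed it as well, with -1.36 ± 0.22 (SE, edgeR adjusted p = 5.43e-06) in TXdXicB6 and -1.25 ± 0.22 (SE, edgeR adjusted p = 1.05e-05) in TXdXicCast, but the TXdXicCast change from day 1 was 0.08 (edgeR adjusted p = 0.794). Most of the decrease was already there on day 1, with -1.45 ± 0.22 in TX1072. In TXdXicB6 the day 1 change of -0.77 (edgeR adjusted p = 0.00431) was lost without day 0 replicate 1 (-0.43, edgeR adjusted p = 0.103). Its general counterpart Cox7a2 changed by -0.59 ± 0.12 (SE, edgeR adjusted p = 3.44e-04) in TX1072, by -0.19 (edgeR adjusted p = 0.371) in TXdXicB6 and by 0.29 (edgeR adjusted p = 0.142) in TXdXicCast, where it was -0.02 (edgeR adjusted p = 0.947) from day 1.

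Cox7b2, best known from testis, rose and then fell while its X-linked counterpart Cox7b declined. In TX1072 Cox7b2 went from 2.45, 1.63 and 2.56 CPM on day 0 to 8.05, 4.57 and 5.91 CPM on day 1, 6.69, 7.32 and 7.41 CPM on day 2 and 0.786, 0.698 and 0.981 CPM on day 4. Days 1 and 2 lay above day 0 and day 4 lay below it, without overlap. The log2 change was 1.48 ± 0.23 (SE, edgeR adjusted p = 4.10e-05) from day 0 to day 1 and -2.90 ± 0.26 (SE, edgeR adjusted p = 1.78e-08) from day 1 to day 4. TXdXicB6 showed 2.64 ± 0.31 (SE, edgeR adjusted p = 5.85e-08) and -2.62 ± 0.30 (SE, edgeR adjusted p = 1.74e-08), and TXdXicCast 2.42 ± 0.29 (SE, edgeR adjusted p = 4.04e-08) and -2.07 ± 0.27 (SE, edgeR adjusted p = 2.09e-07). The TXdXicCast rise was measured against the degraded day 0, whereas its later fall does not use those libraries. Per kilobase its level was low throughout beside Cox7b, which had the highest CPM per kilobase of exon of the 88 members on day 0 except Atp5b (594 against 658).

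Cox6b2, another isoform best known from testis, dipped on day 1. TX1072 held 14.9, 13.1 and 23.5 CPM on day 0, 6.12, 9.10 and 7.05 CPM on day 1 and 24.3, 19.6 and 26.4 CPM on day 2. All day 1 libraries were below all those of days 0 and 2. From day 1 to day 4 it rose by 1.13 ± 0.26 (SE, edgeR adjusted p = 0.00123) in TX1072, 1.09 ± 0.19 (SE, edgeR adjusted p = 1.48e-05) in TXdXicB6 and 1.56 ± 0.19 (SE, edgeR adjusted p = 5.50e-08) in TXdXicCast. Cox6b1, the general gene, fell instead, from 278, 317 and 409 CPM on day 0 to 162, 198 and 172 CPM on day 4 in TX1072 (-0.92 ± 0.15 SE, edgeR adjusted p = 4.52e-05), with -0.77 ± 0.13 in TXdXicB6 and -0.66 ± 0.13 in TXdXicCast. Its TXdXicCast change from day 1 was -0.36 (edgeR adjusted p = 0.0186), lost without day 1 replicate 2 (-0.31, edgeR adjusted p = 0.0679) or day 4 replicate 2 (-0.26, edgeR adjusted p = 0.112). Cox4i1, the general form of the largest nuclear subunit, changed by -0.49 ± 0.15 (SE, edgeR adjusted p = 0.0068) in TX1072 and -0.19 (edgeR adjusted p = 0.14) in TXdXicB6. Cox8a changed by -0.72 ± 0.12 (SE, edgeR adjusted p = 3.67e-05) and Cox6a1 by -0.59 ± 0.17 (SE, edgeR adjusted p = 0.00554) in TX1072. Their muscle forms Cox8b and Cox6a2 were not above 0.120 CPM in any library.

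**Figure D3:**
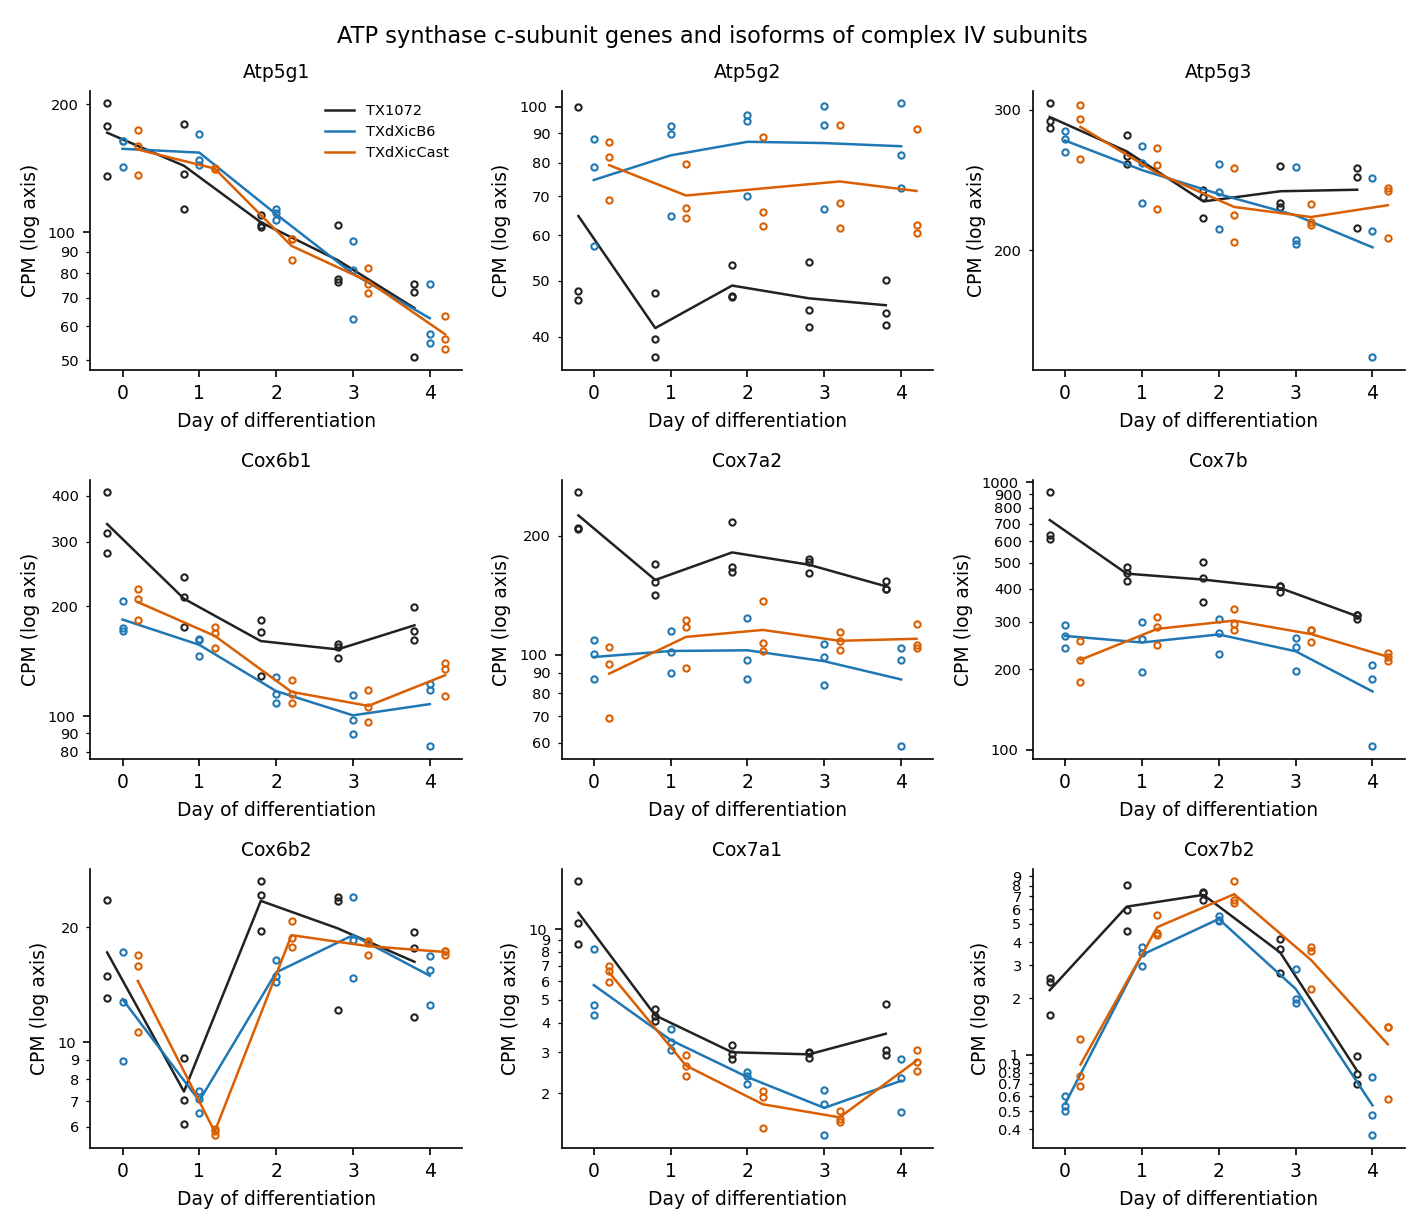
CPM (log axes, a separate scale in each panel) by day in every library of TX1072 (black), TXdXicB6 (blue) and TXdXicCast (orange), with lines through the means of 3, for the c-subunit genes of the ATP synthase (top row) and for 3 general complex IV genes (middle row) above their tissue-restricted counterparts (bottom row). Atp5g1 is lowest on day 4 in the 3 lines, Cox7b2 peaks on days 1 and 2, and Cox6b2 is lowest on day 1.

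Atp5b and Atp5a1, the catalytic beta and the alpha subunit of complex V, the ATP synthase, stood at 658 and 548 CPM per kilobase of exon on day 0. Atp5b fell from 2702, 3027 and 2634 CPM on day 0 to 2073, 2179 and 2207 CPM on day 4 in TX1072 (-0.37 ± 0.11 SE, edgeR adjusted p = 0.0083). It changed by -0.29 (edgeR adjusted p = 0.0275) in TXdXicB6, which was lost without day 0 replicate 1, day 4 replicate 2 or day 4 replicate 3, at -0.20 (edgeR adjusted p = 0.159), -0.26 (edgeR adjusted p = 0.0851) and -0.25 (edgeR adjusted p = 0.0922). Atp5a1 changed by -0.41 (edgeR adjusted p = 0.0128) in TX1072, which was lost without day 0 replicate 1 (-0.34, edgeR adjusted p = 0.0639) or day 0 replicate 2 (-0.33, edgeR adjusted p = 0.0609), and by -0.42 ± 0.11 (SE, edgeR adjusted p = 0.00199) in TXdXicB6 and -0.80 ± 0.11 (SE, edgeR adjusted p = 3.58e-07) in TXdXicCast, with -0.31 (edgeR adjusted p = 0.0174) from day 1 there, lost without day 4 replicate 3 (-0.22, edgeR adjusted p = 0.124). As a group 14 of 17 members fell in TX1072, 9 of 17 in TXdXicB6, and 11 fell and 2 rose in TXdXicCast. Their sum ended at 73.8%, 78.2% and 70.0% of day 0. Over all genes 27.8%, 29% and 34% were lower in the 3 lines, and 35.4% were higher in TXdXicCast.

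The c-subunit of the membrane ring is made from 3 genes, which are known to encode the same mature protein behind different import signals, and their changes were of different size. Their promoters (250 bases before to 50 after the start, RefSeq, GRCm38.p6, minus strand of each chromosome) are shown because of these measured sizes, although the difference was not tested. Capitals mark matches on either strand to CCAAT, or to the NRF1 motif GCGCATGC, the ETS motif CCGGAAG and the YY1 motif AAGATGGC. The windows are chr11:96075582-96075881 for Atp5g1, chr15:102670998-102671297 for Atp5g2 and chr2:73911277-73911576 for Atp5g3. That of Atp5g2 lies inside the GENCODE span of its gene (chr15:102662864-102672352), while those of Atp5g1 and Atp5g3 reach past the GENCODE gene start.
Atp5g1: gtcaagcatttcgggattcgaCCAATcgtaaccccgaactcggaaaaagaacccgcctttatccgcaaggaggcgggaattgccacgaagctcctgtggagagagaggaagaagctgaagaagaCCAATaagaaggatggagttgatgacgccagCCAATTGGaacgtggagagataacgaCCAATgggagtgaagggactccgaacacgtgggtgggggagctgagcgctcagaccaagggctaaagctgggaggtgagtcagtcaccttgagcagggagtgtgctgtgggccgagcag
Atp5g2: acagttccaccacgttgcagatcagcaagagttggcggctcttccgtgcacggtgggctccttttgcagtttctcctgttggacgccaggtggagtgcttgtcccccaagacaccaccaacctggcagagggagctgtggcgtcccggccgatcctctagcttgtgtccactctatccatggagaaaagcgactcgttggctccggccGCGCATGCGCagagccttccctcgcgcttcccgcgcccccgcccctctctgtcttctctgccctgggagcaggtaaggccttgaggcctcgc
Atp5g3: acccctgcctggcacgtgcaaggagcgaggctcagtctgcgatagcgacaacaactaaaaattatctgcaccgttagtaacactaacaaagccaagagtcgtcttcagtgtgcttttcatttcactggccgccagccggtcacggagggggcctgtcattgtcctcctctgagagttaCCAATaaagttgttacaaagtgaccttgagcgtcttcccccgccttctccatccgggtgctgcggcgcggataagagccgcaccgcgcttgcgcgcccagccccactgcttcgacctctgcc
The Atp5g1 window holds 5 CCAAT matches, of which 2 overlap on opposite strands, Atp5g3 holds 1, and Atp5g2 holds none but a pair of overlapping NRF1 matches. Such matches are descriptions of the letters and show no binding.

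In bulk RNA Atp5g1 fell in the 3 lines after day 1. TX1072 measured 136, 178 and 201 CPM on day 0, 109.9, 103 and 104 CPM on day 2 and 50.8, 72.3 and 75.7 CPM on day 4. TXdXicB6 went from 164, 164 and 143 CPM to 75.6, 54.9 and 57.7 CPM, and TXdXicCast from 136, 159.6 and 174 CPM to 63.5, 55.9 and 53.0 CPM. No day 4 library reached its own line's day 0, and the log2 changes were -1.37 ± 0.19 (SE, edgeR adjusted p = 3.70e-06), -1.32 ± 0.13 (SE, edgeR adjusted p = 7.70e-10) and -1.44 ± 0.13 (SE, edgeR adjusted p = 1.12e-10). In bulk RNA most of the decrease came after day 1, since the changes from day 1 to day 4 were -1.11 ± 0.18, -1.29 ± 0.13 and -1.29 ± 0.13, while none of the 3 day 1 changes passed the test. Single TX1072 cells differed on day 1. There Atp5g1 stood at 81.5 CPM of UMIs on day 0, 37.8 on day 1, 55.9 on day 2, 44.0 on day 3 and 40.6 on day 4. Day 1 alone was sequenced in 2 runs, and the single-cell sum of all members was also low then, at 74.3% of day 0. A difference in timing can therefore not be told apart from that of the runs.

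Atp5g2 and Atp5g3 moved less. Atp5g2 held 48.0, 46.4 and 99.7 CPM on day 0 and 41.9, 50.3 and 44.0 CPM on day 4 in TX1072, where replicate 3 of day 0 stands far above the rest. Its call (-0.51, edgeR adjusted p = 0.0484) was lost without that library (-0.08, edgeR adjusted p = 0.644), without day 4 replicate 1 (-0.50, edgeR adjusted p = 0.0998) and without day 4 replicate 3 (-0.49, edgeR adjusted p = 0.101). In TXdXicB6 and TXdXicCast it was at 0.19 (edgeR adjusted p = 0.421) and -0.15 (edgeR adjusted p = 0.528). Atp5g3, with 135 CPM per kilobase on day 0 against 34.9 for Atp5g1 and 38.6 for Atp5g2, went from 306, 285 and 291 CPM to 254, 213 and 247 CPM in TX1072, a log2 change of -0.30 ± 0.10 (SE, edgeR adjusted p = 0.0119), with an edgeR adjusted p of 0.0548 when no filter on low counts was used. Its change was -0.44 (edgeR adjusted p = 0.00499) in TXdXicB6, lost without day 4 replicate 2 (-0.26, edgeR adjusted p = 0.0626). Against the degraded day 0 of TXdXicCast it was -0.33 (edgeR adjusted p = 0.0299), lost in 5 of the 6 fits that left out 1 library of these days (edgeR adjusted p 0.0562 to 0.177). The TXdXicCast changes from day 1 were 0.03 (edgeR adjusted p = 0.918) for Atp5g2 and -0.13 (edgeR adjusted p = 0.406) for Atp5g3. In the single cells the c-subunit genes gave log2 ratios of day 4 over day 0, with Atp5g1 at -1.01 (95% counting interval -1.09 to -0.92), Atp5g3 at -0.15 (95% counting interval -0.17 to -0.14) and Atp5g2 at 0.18 (95% counting interval -0.10 to 0.46). The difference between the 3 genes was not tested.

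Over the 68 members with a RefSeq promoter window, GCGCATGC was in 14.7% (10 members) against 2.71% of all 32851 windows. CCGGAAG was in 23.5% against 8.86%, AAGATGGC in 13.2% against 2.75%, CCAAT in 44.1% against 37.4% and TATAAA in 11.8% against 13.6%. NRF1, GABP (an ETS factor) and YY1 are known regulators of respiratory genes. Both strands were searched, and no test was made.

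Among the members 3 are X-linked and can change dosage when an X chromosome is silenced. Ndufa1 (chrX:37187588-37191163, minus strand) and Ndufb11 (chrX:20615326-20617619, minus strand) are complex I accessory subunits of the membrane arm, and Cox7b (chrX:106015700-106022450, plus strand) is a complex IV subunit; coordinates are those of GENCODE on mm10. Ndufb11 held 107, 97.9 and 125 CPM on day 0 and 82.3, 75.6 and 76.6 CPM on day 4 in TX1072, without overlap. It fell in the 3 lines, with log2 changes of -0.49 ± 0.13 (SE, edgeR adjusted p = 0.00299) in TX1072, -0.68 ± 0.16 (SE, edgeR adjusted p = 5.47e-04) in TXdXicB6 and -0.56 ± 0.16 (SE, edgeR adjusted p = 0.00244) in TXdXicCast. From day 1 to day 4 the TXdXicCast change was -0.13 (edgeR adjusted p = 0.507). Cox7b held 633, 614 and 916 CPM on day 0 and 319, 307 and 319 CPM on day 4 in TX1072 (-1.19 ± 0.14 SE, edgeR adjusted p = 7.66e-07). It fell in TXdXicB6 as well (-0.69 ± 0.18 SE, edgeR adjusted p = 0.00188) and stood at 0.04 (edgeR adjusted p = 0.862) against the degraded day 0 of TXdXicCast and at -0.35 (edgeR adjusted p = 0.104) from its day 1, which passed without a filter on low counts (edgeR adjusted p = 0.0194) and with each line fitted on its own (edgeR adjusted p = 0.0267). Ndufa1 held 69.1, 57.0 and 94.6 CPM on day 0 and 55.3, 56.0 and 60.9 CPM on day 4 in TX1072, and these ranges overlapped. Its call (-0.36, edgeR adjusted p = 0.0381) was lost without day 0 replicate 3 (-0.16, edgeR adjusted p = 0.256), day 4 replicate 1 (-0.37, edgeR adjusted p = 0.0625) or day 4 replicate 2 (-0.38, edgeR adjusted p = 0.0583).

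Allele-specific counts of the deletion lines show how much of the RNA came from the X that can be inactivated. For Ndufb11 in TXdXicB6 this share was 50.9%, 49.3% and 49.0% in the day 0 libraries, 49.3%, 55.7% and 46.8% on day 2 and 36.4%, 37.4% and 30.8% on day 4. In TXdXicCast it was 49.7%, 51.0% and 48.6% on day 0 and 44.0%, 44.1% and 44.8% on day 4. Every day 4 library lay below every day 0 library of its line, with means that dropped by 14.9 percentage points in TXdXicB6 and dropped by 5.42 in TXdXicCast, and the 2 lines did not overlap on day 4. The exact permutation test (two-sided) gave p = 0.1 for each of these 3 comparisons, the smallest value that 3 against 3 allow, with an adjusted p of 0.1 over the 3 tests. The Ndufb11 shares rest on 220 to 4082 allele-specific counts a library.

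Other X-linked genes give the background. Their median share was 49.3% on day 0 and 30.5% on day 4 in TXdXicB6 (228 genes with at least 20 allele-specific counts in every library), and 49.6% and 38.3% in TXdXicCast (304 genes). At day 4 Ndufb11 lay above 72.4% of these genes in TXdXicB6 and above 78.9% in TXdXicCast. At day 2 it lay above 86.4% in TXdXicB6, where its mean share was still 50.6% ± 4.56 (SD, n = 3). Cox7b had too few allele-specific counts for this comparison, as few as 2 in a TXdXicB6 library of day 0 and from 16 to 104 in those of TXdXicCast. No allele-specific counts were listed for Ndufa1 in any of the 30 libraries, so that its alleles could not be told apart.

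**Figure D4:**
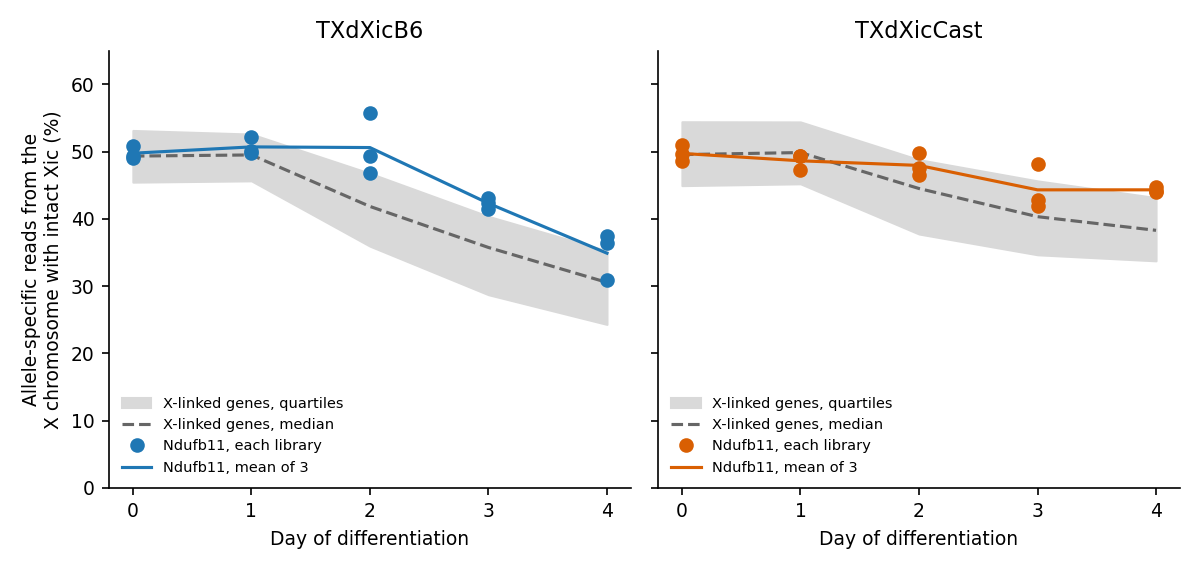
Share of allele-specific Ndufb11 counts from the X chromosome with an intact inactivation center (%), by day, for each library of TXdXicB6 (left) and TXdXicCast (right), with the mean of 3 as a line, the median of X-linked genes dashed and their quartiles in grey. Ndufb11 drops from 49.8% to 34.9% in TXdXicB6 and from 49.7% to 44.3% in TXdXicCast, and its mean is above the median of X-linked genes from day 2 on.

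Single TX1072 cells also held less RNA of the members on day 4 than on day 0, relative to all UMIs. The study retained 1472 of 2000 capture sites (277, 325, 341, 257 and 272 cells from day 0 to day 4) after removing sites with several cells by imaging, and retained cells held a median of 138565, 124651, 125591, 130377 and 171158 UMIs (unique molecular identifiers, which count molecules). The names of the 2000 capture sites were distinct, while the 40 row barcodes recur in all 50 columns by design. Day 1 alone was sequenced in 2 runs, so its values cannot be told apart from that difference. With 1 culture a day there was no test between days, and intervals cover counting error only. The summed level of the 87 members found here was 74.3% of day 0 on day 1, 90.4% on day 2, 85.1% on day 3 and 85.4% on day 4. Bulk counts put on the same scale, relative to the total count of each library without TMM, stood at 85.3%, 92.7%, 84.2% and 75.7% of day 0 on these days in TX1072, beside 70.2% on day 4 with the autosomal total and TMM. At day 4 complex III stood at 73.4% and complex IV at 75.3%, while complexes I, II and V stood at 91.8%, 97.4% and 89.4%. By summed level, complexes III and IV kept the smallest part of day 0 in single cells and in TX1072 bulk RNA, while by the median over members complex V fell more than complex IV in bulk.

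Of the 80 members with at least 100 UMIs on day 0 or day 4, 53 (66.2%) had a 95% counting interval of day 4 over day 0 below a log2 ratio of 0 and 15 (18.8%) had one above it, with a median of -0.16. Over all 13034 genes with as many UMIs these shares were 39.7% and 48.7%, with a median of 0.09. Column 2 of the 10 columns of capture sites stood apart in at least 1 complex on days 0, 1, 3 and 4, and without it 53 members lay below and 17 above, with a median of -0.17. Cox5a went from 1366 CPM of UMIs on day 0 to 644 on day 1 and 678 on day 4. Cox7b2 stood at 9.96 CPM on day 0, 30.2 on day 1, 34.0 on day 2 and 4.75 on day 4, with its peak on day 2. Cox6b2 dipped to 18.4 on day 1 from 49.2 and stood at 73.9 on day 2, and Ndufa13 went from 524 to 293 and then to 552. Single cells and bulk RNA differed for other members. Of the 15 members higher in single cells 3 were lower in TX1072 bulk RNA (Atp5h, Atp5pb and Sdhb) and 12 were not called there, while 47 of the 53 members lower in single cells were lower in bulk. This stands beside 61 of all 80 tested members lower in bulk. A further 10 members lower in bulk had a single-cell interval that held 0. Atp5h, a stalk subunit of complex V that was chosen after its values were seen, had a log2 ratio of 0.10 (95% counting interval 0.07 to 0.13) in single cells, against -0.61 (edgeR adjusted p = 6.12e-04) in TX1072 bulk, -0.41 (edgeR adjusted p = 0.00116) in TXdXicB6 and -0.74 (edgeR adjusted p = 4.34e-07) against the degraded day 0 of TXdXicCast. Cox7a1 went from 86.5 CPM of UMIs on day 0 to 22.1 on day 1 and back to 48.8 on day 4, a log2 ratio of -0.83 (95% counting interval -0.90 to -0.75) against -1.71 in bulk. In column 2 it stood at 85.7 CPM on day 4, against 45.6 in the other columns. Ndufb4 had a log2 ratio of -0.45 (95% counting interval -0.59 to -0.31) against -1.62 in bulk, and column 2 held 72.5 CPM on day 0 and 58.6 on day 4, against 20.0 and 13.8 in the other columns. The X-linked members had log2 ratios of day 4 over day 0 of -0.56 (95% counting interval -0.58 to -0.54) for Cox7b, -0.13 (95% counting interval -0.17 to -0.10) for Ndufb11 and -0.14 (95% counting interval -0.17 to -0.12) for Ndufa1.

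**Figure D5:**
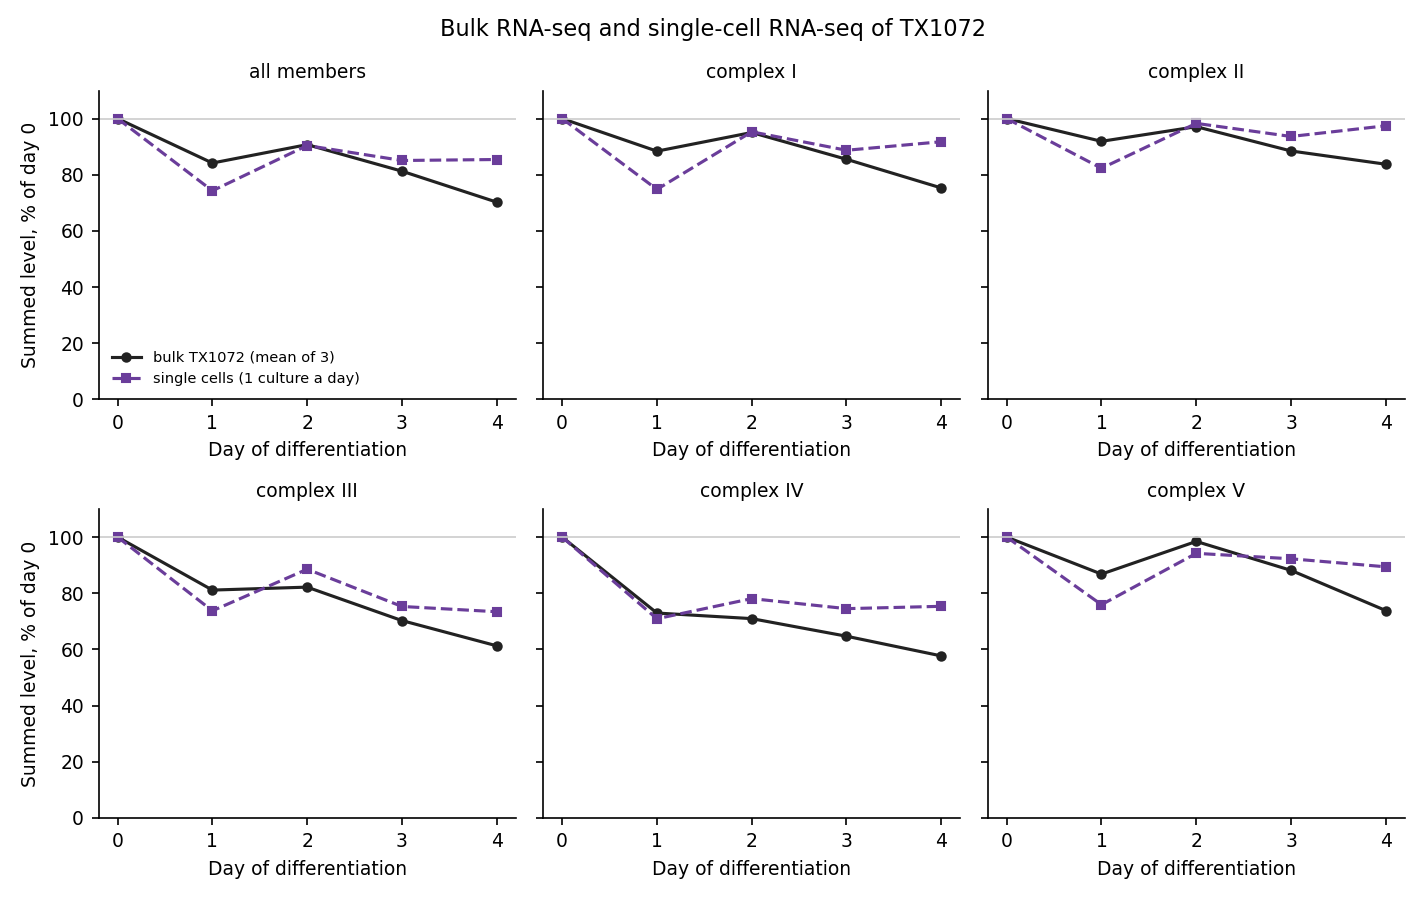
Summed level of all members and of each complex as a percentage of day 0 (axes from 0) by day, for TX1072 bulk RNA (black circles, mean of 3 replicates) and for retained single cells (purple squares, 1 culture a day, day 1 sequenced in 2 runs). Both series dip on day 1 and rise again on day 2 for all members, and on day 4 the single cells stand at 85.4% (relative to all UMIs) against 70.2% in bulk (autosomal total and TMM), which is 75.7% relative to the bulk library totals.

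Other genes of the same pathway were followed by lists. The mitochondrially encoded subunits summed to 14811, 10107 and 19239 CPM on day 0 and 9181, 10439 and 12719 CPM on day 4 in TX1072, so that these replicates overlapped, with mt-Co1 highest in CPM. Of 8 tested, 2 fell in TX1072 (27.8% of all genes), whereas in TXdXicB6 3 rose and 1 fell of 10 (29.9% and 29% of all genes). The sum of these subunits in single cells was 120.5% of day 0. Assembly factors, which build the complexes without staying in them, had 20 of 48 lower and 5 higher in TX1072, beside 27.8% and 31% of all genes. Ndufaf5, an assembly factor of complex I, fell by 1.18 (edgeR adjusted p = 5.77e-07). Of the regulators of respiratory transcription 2 of 13 fell in TX1072, beside 27.8% of all genes. They were Esrrb (-3.45 ± 0.19 SE, edgeR adjusted p = 2.26e-11), which is also a naive pluripotency factor, and Gabpa (-0.84 ± 0.12 SE, edgeR adjusted p = 4.85e-06), the DNA-binding subunit of GABP. Nrf1 was at 0.01 (edgeR adjusted p = 0.933).

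Citric acid cycle genes fell with the members, with 11 of 17 lower and 1 higher in TX1072, 12 lower and 1 higher in TXdXicB6, and sums at 75.1% and 72.5% of day 0. The counts of this paragraph stand beside 27.8% of all genes lower and 31% higher in TX1072. These shares were 29% and 29.9% in TXdXicB6, and 34% and 35.4% in TXdXicCast. Idh2, the mitochondrial NADP-dependent isocitrate dehydrogenase, went from 444, 459 and 396 CPM on day 0 to 132, 138 and 117 CPM on day 4 (-1.75 ± 0.13 SE, edgeR adjusted p = 1.73e-09). Glycolysis genes were split, with 6 higher and 5 lower of 16 in TX1072 (beside 31% and 27.8% of all genes) and 7 higher and 4 lower in TXdXicB6. In TXdXicCast 1 was higher and 7 were lower against the degraded day 0. The glycolysis sum stood at 146% of day 0 on day 2 in TX1072, 148% in TXdXicB6 and 111% in TXdXicCast, its highest mean of the 5 days in each line, and at 133% in single cells. It ended at 106% of day 0 in TX1072, 131% in TXdXicB6 and 76.9% in TXdXicCast. Against day 1 it stood at 115% in TXdXicB6 and 88.9% in TXdXicCast on day 4. Ldhb, the lactate dehydrogenase B chain, rose by 4.65 ± 0.21 (SE, edgeR adjusted p = 8.22e-13), while Pfkp, a phosphofructokinase, and Hk2, a hexokinase, fell by 2.75 and 1.12 on the log2 scale. Protein synthesis genes fell too in TX1072, with 46 of 83 cytosolic ribosomal proteins and 41 of 74 mitochondrial ribosomal proteins lower. In TXdXicB6 7 of 83 cytosolic ribosomal proteins were lower, and their sum stood at 94.4% of day 0. Mitochondrial ribosomal proteins (32 of 74 lower, 4 higher) and assembly factors (19 of 48 lower, 6 higher) stood at 83.1% and 81.1% there, and the members at 76.8%.

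Markers of other cell types moved over the same days, and their part in the members' decline was not tested. In TX1072, primitive endoderm markers summed to 2.00, 2.69 and 3.00 CPM on day 0 and 44.6, 13.3 and 13.8 CPM on day 4 (6 of 6 higher, Foxa2 highest with 14.4 CPM), and mesoderm markers to 13.4, 18.4 and 16.9 CPM on day 0 and 250.1, 122 and 94.6 CPM on day 4 (3 of 4 higher, T highest with 129 CPM). Replicate 1 of day 4 was the highest in both lists. Trophoblast markers summed to 77.7, 109.6 and 73.3 CPM on day 0 and 175, 133 and 124 CPM on day 4 (2 higher and 2 lower of 5), neural markers to 77.2, 107 and 68.3 CPM on day 0 and 187, 204 and 223 CPM on day 4 (3 higher and 1 lower of 4) and fibroblast markers to 22.3, 27.1 and 31.4 CPM on day 0 and 16.9, 19.7 and 19.3 CPM on day 4 (2 higher and 2 lower of 5). In TXdXicB6 mesoderm markers summed to 22.5, 37.5 and 30.0 CPM on day 4 beside 19.5, 21.4 and 19.4 CPM on day 0, and Mesp1 was at 0 in the 3 libraries of day 4. Relative to library totals, primitive endoderm markers on day 4 stood at 382% of day 0 in TXdXicB6 and 470% in TXdXicCast, whose day 0 is degraded. Mesoderm markers stood at 164% and 318%, trophoblast at 103% and 121%, neural at 182% and 140%, and fibroblast at 61.2% and 52.0%. In single cells these lists stood, in the same order, at 3441%, 1061%, 240%, 212% and 64.0% of day 0. General pluripotency genes fell in TX1072 from 3772, 3643 and 3916 to 1647, 1816 and 1932 CPM.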

How the data were processed

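The authors aligned reads with STAR (2.5.2b) to mm10 with the B6 and Cast variants masked, and the deposited counts are whole uniquely aligned exon-overlapping reads per gene (featureCounts) for bulk RNA and UMI counts per gene for single cells (Drop-seq pipeline, with day 1 sequenced in 2 runs). Reads shared with near-identical copies are therefore not counted, which can lower small subunits that have processed pseudogenes. Allele-specific counts rest on reads over variants.

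Bulk counts were tested with edgeR 4.0.16 (quasi-likelihood, R 4.3.3) after filterByExpr and TMM from autosomal genes, for the 15 TX1072 libraries and the 30 deletion-line libraries apart, with Benjamini-Hochberg adjustment over all genes. DESeq2 1.42.0, other size factors, no filter, each library left out and a replicate block were alternatives. Replicates were differentiated on different days, per the study, so their numbers pair samples: same-numbered samples of a line had a median correlation of deviations of 0.181 in TX1072 (18 of 30 pairs over 0.1) and 0.268 in the deletion lines (49 of 60). Across the deletion lines it was 0.139. Unless another fit is named, printed p-values ignore this pairing. The replicate block lowered no count of called members. It gave 53 in place of 40 for TXdXicB6 day 4 against day 0, 44 in place of 35 for TXdXicCast day 4 against day 1, and 61 in both fits for TX1072 day 4 against day 0. Single-cell counts were summed over the 1472 cells that the study retained, with 95% counting intervals. Replicates differed by more than sampling noise.

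On simulated data 14.3% of genes changed 1.4-fold and 67.1% of those changed 2-fold were recovered for TX1072 day 4 against day 0 (18871 genes in the simulated table), and 26.5% and 64.4% for TXdXicB6 (19885 genes). Few genes were changed there (56, 73 and 71 by 1.4-fold, 2-fold and 4-fold for TX1072), and all others kept 1 level. In the data 58.8% of genes were called for TX1072. The Benjamini-Hochberg threshold was therefore stricter in the simulation, and these shares do not give the recovery in the data. Named genes were the X-linked members, the 2 with the highest CPM of each complex, the 3 largest called changes each way per comparison (no overlap, mean count of at least 100), core subunits, isoforms and c-subunit genes, and up to 3 genes of each other list; 1 of these is not reported here. Members and lists were chosen with earlier results of these data known. Promoters and coordinates come from RefSeq and GENCODE tables of mm10 (GRCm38).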

Additional observations from a re-analysis of the deposited data

Results flagged for a closer look

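In single cells, column 2 of the 10 columns of capture sites lay far from the other 9 in 10 of 30 groups of columns. The rule flags about 1 in 20 independent groups by chance. These groups are not independent, since those of a day share cells and all members include each complex. The number of flags can therefore not be set against that rate. For all members column 2 stood at 47411 CPM of UMIs on day 0 (nearest other column 42905) and 39222 on day 3 (37113). For complex I it stood at 16979 on day 0 (15540.1) and 14807 on day 3 (13674). For complex III the values were 6224 on day 0 (4977), 4241 on day 1 (3750.2), 4409 on day 3 (3893) and 4677 on day 4 (3693). For complex IV they were 11299 on day 0 (9847) and 8543 on day 4 (7579.6). Of 78 members with enough UMIs, 27 were higher in column 2 on all 5 days and 11 were lower on all 5 days, and the share over all genes was not computed. Other lists also differed there: cytosolic and mitochondrial ribosomal proteins were higher in column 2 on all 5 days (mean log2 0.15 and 0.10), and mitochondrially encoded subunits were lower on all 5 (-0.47).

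Ndufb4 changed from day 0 to day 4 by -0.75 on the log2 scale in TXdXicB6 and by 0.76 in TXdXicCast, with the replicates of each line all moving one way. The difference between these changes was not tested, and day 0 of TXdXicCast came from degraded RNA.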

How the results depend on the processing

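Among 12 counts of called members, changing the normalization, the filter or the test left each within 1.5 times its value, and the replicate block moved that of TXdXicB6 day 1 against day 0 from 9 to 14 and no other by over 1.5 times. With each library left out in turn the counts ran from 18 to 46 (TX1072 day 1 against day 0), 19 to 31 (TX1072 day 2 against day 0), 33 to 44 (TX1072 day 3 against day 0), 53 to 56 (TX1072 day 4 against day 0), 21 to 30 (TX1072 day 4 against day 1), 5 to 10 (TXdXicB6 day 1 against day 0), 28 to 47 (TXdXicB6 day 4 against day 0), 17 to 48 (TXdXicB6 day 4 against day 1), 37 to 45 (TXdXicCast day 1 against day 0), 46 to 55 (TXdXicCast day 4 against day 0), 20 to 37 (TXdXicCast day 4 against day 1). The count for the difference between the deletion lines was 0 in all of these. For 169 pairs of a named gene and a comparison, direction and side of the threshold held in 909 of 1014 fits without a library and in 918 of 947 under other settings. Calls were lost in 77 and 12 of these, among them Atp5g3 in TX1072 from day 0 to day 4 without the filter (-0.30, edgeR adjusted p = 0.0548). Changes of sign occurred for genes that did not pass the test: without a library the log2 changes were Cox7b (TXdXicCast day 4 minus day 0) -0.0824 to 0.172, Ndufs3 (TX1072 day 4 minus day 0) -0.0901 to 0.0808, Ndufa4 (TXdXicB6 day 4 minus day 0) -0.120 to 0.281, Uqcrb (TXdXicCast day 4 minus day 0) -0.153 to 0.127, Ndufv2 (TXdXicCast day 4 minus day 0) -0.142 to 0.0909, Cox7a2 (TXdXicB6 day 4 minus day 0) -0.347 to 0.0246, Atp5g2 (TXdXicCast day 4 minus day 0) -0.327 to 0.00579, Atp5g2 (TXdXicCast day 4 minus day 1) -0.187 to 0.146, Cox7a2 (TXdXicCast day 4 minus day 1) -0.130 to 0.0639, Nrf1 (TX1072 day 4 minus day 0) -0.0670 to 0.124, Uqcrq (TX1072 day 1 minus day 0) -0.0123 to 0.421. Under other settings they were Ndufs3 (TX1072 day 4 minus day 0) 0.000844 with the replicate block, Ndufv2 (TXdXicCast day 4 minus day 0) 0.0261 with DESeq2 size factors in the edgeR fit, 0.0254 with DESeq2 Wald test, 0.0358 with each line fitted on its own, Cox7a2 (TXdXicCast day 4 minus day 1) 0.0116 with DESeq2 size factors in the edgeR fit, 0.0118 with DESeq2 Wald test, Nrf1 (TX1072 day 4 minus day 0) -0.0111 with TMM factors from all genes, -0.00914 with DESeq2 size factors in the edgeR fit, -0.00763 with DESeq2 Wald test. The cause was not tested.

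In single cells the log2 ratio of day 4 over day 0 was -0.24 for all members, -0.13 for complex I, -0.0586 for II, -0.42 for IV and -0.17 for V over all capture sites, and -0.0696 for II, -0.42 for IV and -0.15 for V with cells thinned to 40000 UMIs. As a median over members of log2 CPM, the bulk change was -0.38 for all members, -0.25 for complex II, -0.59 for III, -0.23 for IV and -0.68 for V in TXdXicCast, and -0.83 for III, -0.61 for IV and -0.70 for V in TX1072. With counts over the total count of each library, chosen after seeing the data, the log2 change of the sum from day 0 to day 4 was -0.40 for all members, -0.30 for complex I, -0.15 for complex II, -0.60 for complex III and -0.33 for complex V in TX1072, -0.19 for complex II in TXdXicB6 and -0.25 for all members, -0.19 for complex I, -0.13 for complex II, -0.47 for complex III, -0.25 for complex IV and -0.25 for complex V in TXdXicCast. Depth limits the allelic shares of Cox7b and the isoforms under 1 CPM.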

Other observations

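The deletion lines also allow the alleles of autosomal members to be compared. Shares are means over the libraries of both lines. Over 55 autosomal members with enough allele-specific counts, the median share of the B6 allele was 51.6%, and 7 of them (12.7%) lay outside 40 to 60%, beside 13.7% of 7198 autosomal genes. The lowest B6 share was that of Atp5g1, at 19.3%. Atp5g2 stood at 31.2%, Cox7c at 28.7%, Ndufc1 at 36.7% and Ndufs5 at 39.8%. Above the range lay Atp5md at 60.4% and Cox7a2l at 75%. By line, Atp5md stood at 61.3% in TXdXicB6 and 59.5% in TXdXicCast, and Ndufc2 at 67.1% and 50.9%, with a joint mean of 59%. These genes were named after their values were seen, and no test was made.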
